A study of Homo sapiens with 6 samples.

Results

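The 10 genes described here are stem cell factors and surface markers, taken as a fixed list of symbols: the pluripotency factors SOX2, NANOG, POU5F1, LIN28B and SALL4, and the breast cancer stem cell markers LGR5, ALDH1A1, ALDH1A3, CD44 and PROM1. Of the 10 genes, 8 have a row among the 19792 genes of the table analysed here, and 5 have a mean normalized count of at least 10 (CD44, ALDH1A3, SALL4, LGR5 and PROM1). The same minimum was reached by 68.5% of all 19792 genes. That share counts only genes with a row, so a share that includes genes without a row is not on the same basis. POU5F1, LIN28B and ALDH1A1 were below it, and SOX2 and NANOG have no row under these symbols or their synonyms and were not analysed here. RNA-seq was performed on BT-549 cells, a human triple-negative breast cancer line, that carried a tetracycline-inducible WDR5 shRNA. Of the 6 libraries, 3 came from cells given vehicle (0.1% DMSO) and 3 from cells given doxycycline (DOX) at 500 ng/ml to switch the shRNA on. Cells of both groups carried the construct with puromycin resistance, and a library with DOX and a control shRNA was not analysed here.

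The values are the authors' means of normalized counts over all 6 libraries, so that vehicle and DOX cultures are averaged. The fold changes and p-values of the authors' own comparison were not used, and no difference between DOX and vehicle is given for any gene. The targeted gene WDR5 had a mean normalized count of 1143 over all 6 libraries, a value that does not check the silencing. For genes with few reads, the mean over the libraries can be split back into the whole reads of each library, because every library contributes whole multiples of 1 read divided by its size factor. This was done for every gene with a mean of up to 45, and each of these 8018 genes had exactly 1 solution. The 6 libraries found in this way carry no label and are named A to F in order of their size factors, from 1.34 to 0.737, and 1 read was worth between 0.744 and 1.36 normalized counts in them. Which of them are vehicle and which are DOX libraries is not known here, and replicate spread within a group was therefore not available. Total depth is unknown, since only size factors and the reads of low genes were recovered.

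Pluripotency factors are DNA-binding proteins that hold embryonic stem cells in an undifferentiated state, and most are silent in adult tissues. LIN28 proteins bind RNA and block maturation of the let-7 microRNAs. In breast cancer, cells with stem-like properties are commonly sorted by high CD44 with low CD24, by aldehyde dehydrogenase activity or by PROM1 (CD133), and LGR5 is a receptor for R-spondins that strengthens Wnt signaling. In bulk RNA, fewer cells with a transcript and less of the transcript per cell cannot be told apart.

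CD44 and ALDH1A3 were abundant, whereas the other 6 genes lay below the median gene. To compare genes, each mean was divided by the length of the longest spliced transcript. CD44 stood at 8845 normalized counts per kb and ALDH1A3 at 583, against a median of 68.7 for the 18318 genes with a known transcript length. SALL4 followed at 8.61, LGR5 at 4.10, PROM1 at 2.72, POU5F1 at 1.81, LIN28B at 0.227 and ALDH1A1 at 0.164. The level of CD44 was thus 15.2 times that of ALDH1A3, and that of ALDH1A3 was 67.7 times that of SALL4. CD44 lay above 99.5% of the genes and ALDH1A3 above 84.4%. SALL4, LGR5 and PROM1 lay above 32.6%, 27.6% and 24.6%, and POU5F1, LIN28B and ALDH1A1 above 22.0%, 9.46% and 7.63%.

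**Figure D1:**
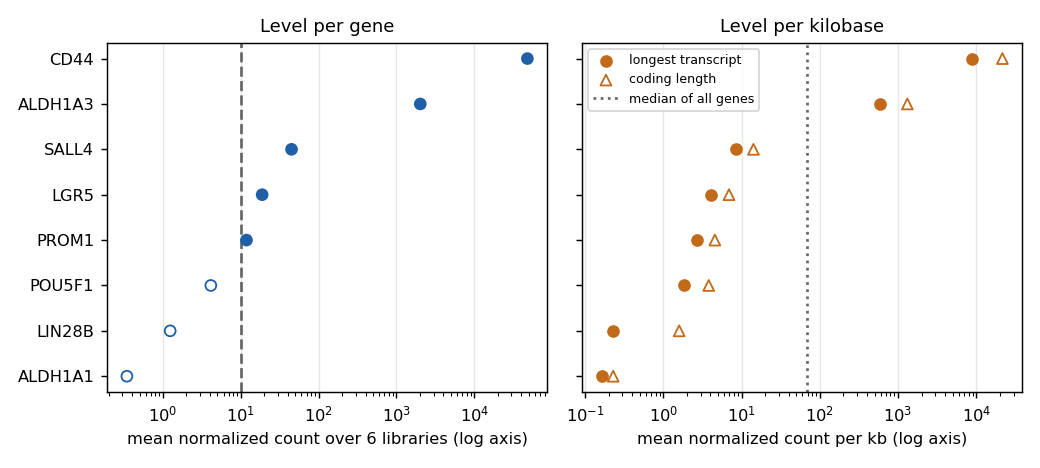
Levels of the 8 genes with a row. Left, mean normalized count over 6 libraries on a log axis, with the dashed line at 10 and filled points for the 5 genes at or above it; right, the same per kb of the longest transcript (filled circles) and of the coding length (open triangles) on a log axis, with the median of all genes at 68.7 dotted. CD44 and ALDH1A3 sit above the dotted line and the other 6 genes below it on both lengths. The line is the median for the longest transcript, and no median was computed for the coding length.

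CD44 is a cell surface receptor for hyaluronan, and its gene lies on chromosome 11 of GRCh38 from 35138882 to 35232402 on the plus strand (GENCODE 44). Its mean normalized count was 48038, the 28th highest of the 19792 genes and 0.181% of the sum of the table. Single libraries could not be recovered at this level. CD24, the marker that is low in sorted CD44-high cells, had a mean normalized count of 4050 and a level of 1611 per kb. That level is 5.49 times below CD44, but CD24 itself lay above 95.0% of the genes per kb and was not low as RNA. Sorting reads protein on the surface of single cells, which RNA of bulk cultures does not measure. The ratio rests on the longest transcripts, and no other length was tried for CD24. Per kb, CD44 was the second highest of 19 surface markers, after ITGB1 (integrin beta 1) at 9809 and before ANPEP (CD13) at 6733, NT5E (CD73) at 5546 and ALCAM (CD166) at 4667. Of the 16 surface markers listed beside the 10 genes, 13 (81.25%) had a mean of at least 10, against 68.5% of all genes. EPCAM, an epithelial adhesion molecule, was among the 3 below, with 7 reads over 4 libraries.

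Of 14 enzymes, splicing factors and partners of CD44, 11 (78.6%) had a mean of at least 10, against 68.5% of all genes with a row. HAS1, counted among the 14, has no row. The hyaluronan synthases HAS2 and HAS3 stood at 282 and 468 per kb. The highest levels of the list were those of MSN (moesin, which links CD44 to actin) at 3908 per kb, MMP14 (a protease that cleaves CD44) at 3640, EZR (ezrin) at 2474 and RDX (radixin) at 1120. ESRP1 and ESRP2, splicing factors of epithelial cells that favour the variant exons of CD44, had means of 13.0 and 5.18, and ESRP1 had no read in library D. The table does not separate the isoforms of CD44.

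PROM1 encodes a pentaspan membrane glycoprotein, on chromosome 4 from 15963076 to 16084378 on the minus strand. Its mean normalized count of 11.8 rested on 69 reads in all (95% Poisson interval 53.7 to 87.3). Intervals of this kind cover counting error only, and reads are not independent molecules. The normalized count was 17.6 in library F (13 reads), 15.1 in library E (12 reads), 12.1 in library C (14 reads), 11.2 in library B (13 reads), 8.27 in library D (8 reads) and 6.70 in library A (9 reads). Reads of PROM1 were found in every library, and the counting intervals of the highest (9.40 to 30.2) and the lowest (3.06 to 12.7) overlapped. Its relative PROM2 was lower, with a mean of 2.79 and 15 reads in all.

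LGR5 lies on chromosome 12 from 71439798 to 71586310 on the plus strand. Its mean of 18.8 rested on 111 reads. The normalized count was 35.4 in library C (41 reads), 26.5 in library E (21 reads), 23.1 in library F (17 reads), 11.2 in library B (13 reads), 9.30 in library D (9 reads) and 7.44 in library A (10 reads). Libraries C, E and F were thus high and A, B and D low, and the counting interval of the highest (25.4 to 48.0) did not overlap that of the lowest (3.57 to 13.7). The highest library was 4.75 times the lowest. Among the 1566 genes with a mean from 10 up to 2 times that of LGR5, the median of this ratio was 2.32, and 7.34% had a ratio at least as large. What sets the libraries apart was not tested, as they carry no label.

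Of the 3 receptors for R-spondins, LGR5 was not the main one by level. LGR4 had a mean of 1130 and stood at 215 per kb, 52.4 times the level of LGR5, whereas LGR6 stood at 1.75 per kb with 41 reads in all. Of 10 receptors, ligands and partners listed for this pathway, 8 have a row, and 6 had a mean of at least 10. These 6 are 60% of the 10, whereas the 68.5% of all genes counts only genes with a row. RSPO4 and RNF43 have no row. The ligands RSPO2 and RSPO3 were the highest of the list at 2001 and 604 per kb, followed by LGR4 and by the Wnt co-receptor LRP6 at 144. RSPO1 had 5 reads in all.

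**Figure D2:**
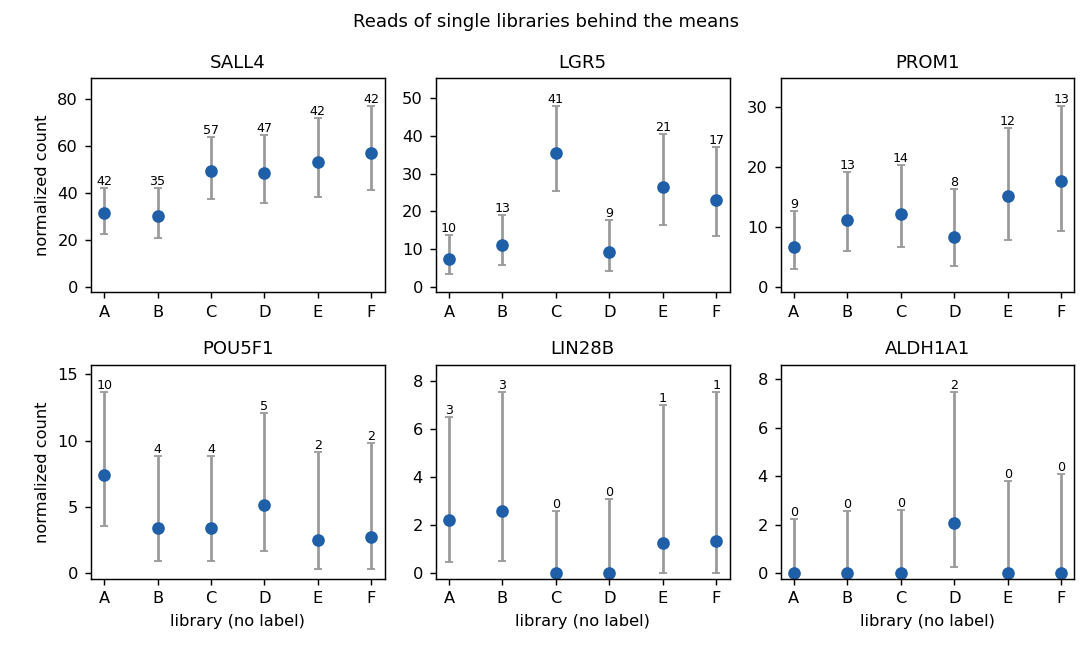
Reads of single libraries for the 6 genes with a mean of up to 45. The vertical axis is the normalized count, the horizontal axis the library (A to F, without label, by falling size factor), bars are 95% Poisson intervals of counting error (at 0 reads, up to the limit of 3 reads) and the digits are reads. LGR5 ranges from 7.44 to 35.4 normalized counts and SALL4 from 30.1 to 57.0, while ALDH1A1 has 2 reads in library D and none in the others.

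The aldehyde dehydrogenases ALDH1A1 and ALDH1A3 both make retinoic acid from retinaldehyde, and the activity of such enzymes is what the stem cell sorting assay reads. ALDH1A3, on chromosome 15 from 100877714 to 100916626 on the plus strand, had a mean normalized count of 2022. ALDH1A1, on chromosome 9 from 72900671 to 73080442 on the minus strand, had a mean of 0.345, which was made up of 2 reads in library D and 0 reads in each of the others. Per kb, the level of ALDH1A3 was 3545 times that of ALDH1A1, with a counting interval from 981 to 29272 for the 2 reads. The third gene of the subfamily, ALDH1A2, had 3 reads in all, so that ALDH1A3 held 99.95% of the summed level per kb of the subfamily. Among all 19 aldehyde dehydrogenases, ALDH1A3 had the fifth highest level per kb. ALDH18A1 (proline synthesis) was the highest at 1398, followed by ALDH9A1 at 934, ALDH7A1 at 681 and the mitochondrial ALDH1B1 at 614. ALDH1A1, ALDH3B2, ALDH1A2 and ALDH1L1 were the 4 lowest, with at most 3 reads each, and could not be ordered. Of the 17 aldehyde dehydrogenases listed beside the members, 13 (76.5%) had a mean of at least 10, a share near the 68.5% of all genes.

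The promoters of the 2 enzymes are shown because the genes are close relatives near opposite ends of the levels measured here, and that of CD44 because it was the highest of the 10 genes. The sequences are from RefSeq (GRCh38.p14), 250 bases before to 50 after the annotated start, read 5′ to 3′ on the strand of the gene, and capitals mark CpG dinucleotides. They are chr15:100879581-100879880 (plus strand), chr9:72953004-72953303 (minus strand) and chr11:35138921-35139220 (plus strand). The starts used lie inside the GENCODE spans given above and are not the ends of those spans. For ALDH1A1 the promoter ends at 72953303, whereas the span reaches 73080442. Other starts of these genes were not compared.
ALDH1A3: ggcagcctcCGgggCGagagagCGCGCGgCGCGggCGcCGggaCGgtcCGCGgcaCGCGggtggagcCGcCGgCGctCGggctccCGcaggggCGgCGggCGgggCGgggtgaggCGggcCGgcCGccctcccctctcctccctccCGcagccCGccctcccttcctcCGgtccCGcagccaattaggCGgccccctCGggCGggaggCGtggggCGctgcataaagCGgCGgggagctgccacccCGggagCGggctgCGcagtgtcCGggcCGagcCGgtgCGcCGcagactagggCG
ALDH1A1: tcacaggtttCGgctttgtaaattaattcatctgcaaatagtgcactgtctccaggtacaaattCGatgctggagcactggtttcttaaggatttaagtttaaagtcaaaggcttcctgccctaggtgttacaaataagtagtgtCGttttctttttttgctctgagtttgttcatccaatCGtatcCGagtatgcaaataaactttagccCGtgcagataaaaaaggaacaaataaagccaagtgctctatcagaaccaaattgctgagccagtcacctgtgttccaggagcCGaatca
CD44: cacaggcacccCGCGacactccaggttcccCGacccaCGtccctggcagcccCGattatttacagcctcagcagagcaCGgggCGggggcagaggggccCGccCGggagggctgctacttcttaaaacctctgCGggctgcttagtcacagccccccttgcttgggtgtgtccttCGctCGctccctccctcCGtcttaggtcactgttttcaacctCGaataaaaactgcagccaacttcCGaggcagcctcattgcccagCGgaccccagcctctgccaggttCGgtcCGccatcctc
The ALDH1A3 promoter held 46 CpG and 81.7% GC, and 2.89% of the 35116 promoters of the same length held as many. The ALDH1A1 promoter held 7 CpG and 40.3% GC, and 63.2% of promoters held as many. CD44 was between them with 18 CpG, against a median of 14 over all promoters.

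Of the 10 genes, 7 have an entry among these promoters, and POU5F1, SALL4 and LGR5 have none. Over the 5 of these genes that have a row, the order by CpG number was not that by level. LIN28B, with 8 reads in all, held 37 CpG, more than CD44. PROM1 held 18 CpG as CD44 did, with a mean of 11.8 against 48038. SOX2 held 20 CpG and NANOG 5. The AP-1 motif TGANTCA was searched on both strands, since AP-1 is a subject of the study, and was in none of the 7 promoters and in 7.71% of all promoters. The motif TATAAA, also searched on both strands, was in that of NANOG alone of the 7 and in 11.5% of all promoters.

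Of 17 genes that handle retinoic acid, 13 (76.5%) had a mean of at least 10, a share near the 68.5% of all genes. RDH10, which oxidizes retinol to retinaldehyde, stood at 1090 per kb and RDH11 at 973. DHRS3, which runs the reverse step of RDH10, stood at 966, followed by the receptor RXRB at 321. CYP26A1, which degrades retinoic acid, had 13 reads in all, and CYP26B1 a mean of 37.0.

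SALL4, a zinc finger factor of embryonic stem cells, lies on chromosome 20 from 51782331 to 51802521 on the minus strand. Its mean of 44.9 rested on 265 reads. The normalized count was 57.0 in library F (42 reads), 53.0 in library E (42 reads), 49.2 in library C (57 reads), 48.6 in library D (47 reads), 31.2 in library A (42 reads) and 30.1 in library B (35 reads). Libraries A and B were lower than the other 4, and the counting intervals of the highest (41.1 to 77.1) and the lowest (21.0 to 41.9) overlapped narrowly. The highest library was 1.89 times the lowest, a ratio reached by 60.0% of the 804 genes with a mean from 0.5 times that of SALL4 up to 45. Of its relatives, SALL2 stood at 66.9 per kb, 7.77 times SALL4, and SALL1 and SALL3 have no row.

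POU5F1 (OCT4), a core pluripotency factor, lies on chromosome 6 from 31164337 to 31180731 on the minus strand. Its mean of 4.12 rested on 27 reads (interval 17.8 to 39.3). Library A held 10 of them, library D 5, libraries B and C 4 each, and libraries E and F 2 each. The normalized counts ranged from 2.52 to 7.44 with a median of 3.45, and the counting intervals of the highest (3.57 to 13.7) and the lowest (0.306 to 9.12) overlapped. POU5F1 has near-identical copies elsewhere in the genome, so its reads are uncertain. The copies POU5F1B and POU5F1P3 were listed with 6 and 2 reads. On the same stretch of chromosome 6, TCF19 and CCHCR1 stood at 438 and 211 per kb and PSORS1C1 had 38 reads in all. Of 11 copies and overlapping or adjacent genes of the members, 8 have a row, and 3 had a mean of at least 10. These 3 are 27.3% of the 11, whereas the 68.5% of all genes counts only genes with a row. POU5F1P4, NANOGP1 and PSORS1C2 have no row. Whether the counting used strand is not given in the sources used here, so reads of overlapping genes on opposite strands may not be separated. For NANOG and SOX2 the table lists only relatives or neighbours of the genes. The NANOG copy NANOGP8 had 2 reads in all, and SOX2-OT, a noncoding gene within which SOX2 lies, had 5 reads over 4 libraries.

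LIN28B lies on chromosome 6 from 104936616 to 105083332 on the plus strand, and its mean of 1.24 was made up of 8 reads (interval 3.45 to 15.8). Libraries A and B held 3 each, libraries E and F 1 each, and libraries C and D none, which with 3 reads as the limit of a count of 0 allows up to 2.59 and 3.10 normalized counts there. At this depth no difference between libraries was detectable. Of 11 other genes of the axis, 10 had a mean of at least 10, against 68.5% of all genes, and LIN28A (mean 16.3, 4.11 per kb) was among them although below the median gene per kb. HMGA1 (a chromatin protein) had the highest level at 3867 per kb, followed by IGF2BP2 (an RNA-binding protein encoded by a let-7 target gene) at 1102, DROSHA (the nuclease that starts microRNA processing) at 704 and TUT4 (the uridylase that LIN28 recruits to let-7), listed under its older symbol ZCCHC11, at 457. IGF2BP1 had 3 reads in all.

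**Figure D3:**
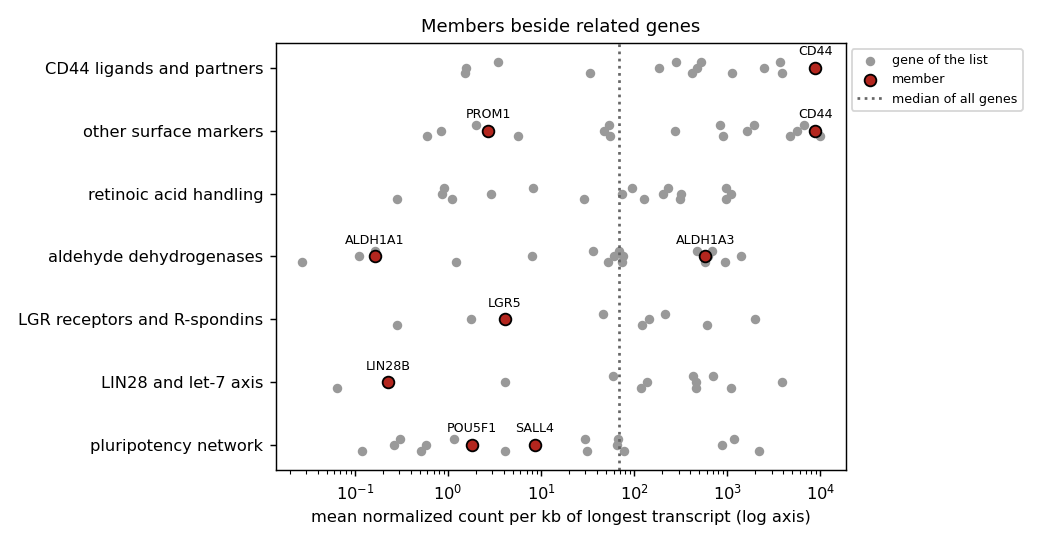
Members beside related genes. Each point is a gene, placed on a log axis by its mean normalized count per kb of the longest transcript; grey points are the genes of 7 lists, red points the 8 members with a row, and the dotted line is the median of all genes at 68.7. CD44 and ALDH1A3 lie among the higher genes of their lists, whereas LGR5, PROM1, LIN28B, ALDH1A1, POU5F1 and SALL4 lie left of the line.

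The wider pluripotency network was detected in part. Of 24 further genes, 16 have a row, and 10 had a mean of at least 10. These 10 are 41.7% of the 24, whereas the 68.5% of all genes counts only genes with a row. A further 6 were below the minimum and 8 have no row (DPPA2, DPPA4, UTF1, TDGF1, GDF3, PRDM14, SALL1 and SALL3). The median over the 16 with a row was 18.9 per kb. MYC at 2181 per kb, KLF5 at 1184 and KLF4 at 887 were the highest, followed by SOX15 at 77.1. MYC, KLF5 and KLF4 also act in adult epithelial cells. Over the 7 lists of related genes together, 97 of 108 genes have a row, and 75 had a mean of at least 10. These 75 are 69.4% of the 108, a share that is not on the same basis as the 68.5% of the whole table.

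The order of the low members was not firm at every step. SALL4 was above LGR5 per kb in 6 of 6 libraries, although the ranges over the libraries (5.78 to 10.9 and 1.62 to 7.72) overlapped. LGR5 was above PROM1 in 5 of 6 libraries and PROM1 above POU5F1 in 4 of 6, again with overlapping ranges. POU5F1 was above LIN28B in 6 of 6 libraries, and there the ranges (1.11 to 3.27 and 0 to 0.474) did not overlap. That step rests on the longest transcripts, of 2276 bases for POU5F1 and 5446 for LIN28B. On coding length the means were closer, at 3.81 and 1.59, and in library B the genes had 4 and 3 reads. The step is therefore not firm on that length. LIN28B and ALDH1A1, with 8 and 2 reads, could not be ordered.

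**Figure D4:**
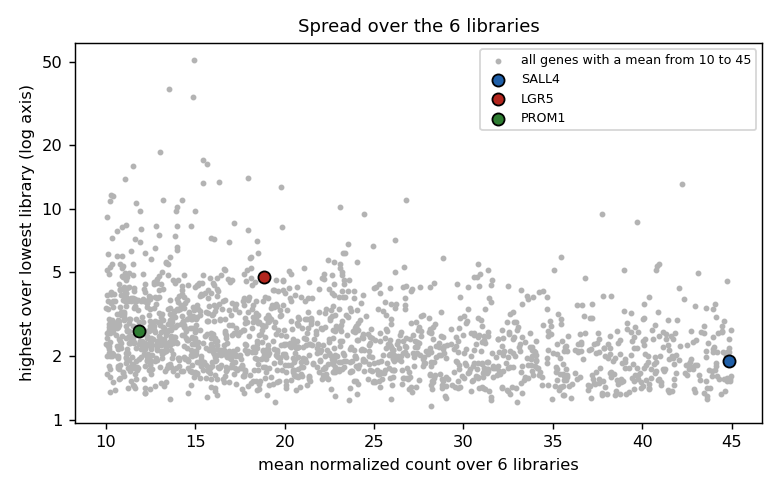
Spread over the 6 libraries for genes with a mean from 10 to 45. The horizontal axis is the mean normalized count, the vertical axis the highest over the lowest library on a log axis, and grey points are all genes of that range apart from 3 with a library at 0. LGR5 lies in the upper part of the cloud at 4.75, PROM1 (2.64) and SALL4 (1.89) within it.

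The labelled cell line was checked against marker genes. The mesenchymal markers VIM, FN1, ZEB1, CDH2 and TWIST1 stood between 774 and 17923 per kb. Epithelial markers were lower, from 0.843 per kb for EPCAM to 208 for KRT18, and 4 of 5 had a mean of at least 10. ESR1 and PGR had 5 reads each, whereas ERBB2 stood at 248 per kb. Of the blood markers, PTPRC had a mean of 44.7, and CD3E and HBB have no row. The endothelial markers PECAM1, CDH5 and KDR had 18, 1 and 1 reads, and the fibroblast genes DCN, LUM and PDGFRA had means of 102, 60.1 and 235.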

How the data were processed

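RNA from triplicate cultures was made into stranded poly(A) libraries. The authors aligned the reads to GRCh38 with STAR and normalized the gene counts with DESeq2. The gene counter, its strand setting and a filter on low counts are not given in the sources used here. Genes with 1 read in 1 library and none elsewhere are listed, with a lowest mean of 0.124, so genes this low kept their row. Of the deposited table, the mean normalized count over all 6 libraries was used, a signal value that the authors made by dividing counts by size factors, without correction for gene length. The other 5 columns (fold change of DOX against vehicle, standard error, Wald statistic, p-value and adjusted p-value) are the authors' own comparison and were not used. A test between groups was planned for values of single labelled libraries only and was not run.

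The lowest means recur at 6 values, the worth of 1 read in each library. Whole reads were then found by an exhaustive search over all sums that match the mean to 15 significant digits. The search was tested on simulated data. The 6 libraries carry no label and entered no group. The maximum mean searched was 45.

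Positions and transcript lengths came from GENCODE 44 on GRCh38, the build of the study but not its annotation release. Of 19792 symbols, 17729 matched directly and 18318 with synonyms. Genes named were the 10 members, WDR5, the 4 highest genes per kb of each list with those that have no row, and the cell type markers, of which 1 is not reported here. CD24, EPCAM, LGR6, RSPO1, HAS2, HAS3, ESRP1, ESRP2, PROM2, SALL2, ALDH1A2, ALDH3B2, ALDH1L1, CYP26A1, CYP26B1, IGF2BP1, LIN28A and the copies of members were added after their values were seen. The members and lists were chosen with earlier results of these data known. Alternatives tried were the minimum mean, the transcript length, the genes ranked and the tolerance of the match. Python 3.11.15 was used with numpy 2.4.6, scipy 1.17.1 and matplotlib 3.10.9.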

Additional observations from a re-analysis of the deposited data

How the results depend on the processing

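The number of the 10 genes counted as expressed was 5 at a minimum mean of 5 as well as 10, 3 at a minimum of 20 and 2 at a minimum of 50. The share of all genes is given for the minimum of 10 only. Whether the fall in number differs from that of all genes was therefore not tested. The number of related genes moved by less than 1.5 times under the minimums of 5 and 50. Levels per kb rest on the transcript length. With the median transcript length in place of the longest, they were 67517 for CD44, 2835 for ALDH1A3, 39.0 for SALL4, 10.1 for PROM1, 6.89 for LGR5, 3.34 for POU5F1, 0.470 for LIN28B and 0.427 for ALDH1A1, so that PROM1 moved above LGR5. With the coding length, they were 21552 for CD44, 1314 for ALDH1A3, 14.2 for SALL4, 6.91 for LGR5, 4.56 for PROM1, 3.81 for POU5F1 and 1.59 for LIN28B, in the same order as with the longest transcript, and ALDH1A1 moved by less than 1.5 times. The median includes short annotated fragments. Among only genes with a mean of at least 10, SALL4, LGR5 and PROM1 lay above 7.55%, 2.87% and 1.27% of genes, as fewer low genes were ranked. With 10 times the tolerance of the match, an alternative chosen after seeing the data, 5 of 6 genes still had 1 solution, and SALL4 had 2.

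No paired analysis was possible because the table holds no values of single labelled libraries, and for the same reason the planned DOX against vehicle tests, their scaling and filter alternatives and the omission of single replicates were not run. Means over both groups cannot show a response to WDR5 silencing. Below about 10 reads, a gene's level is uncertain by several times from counting alone.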

Other observations

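LIN28A, the relative of LIN28B, was the more abundant of the pair and differed widely between the 6 unlabelled libraries. It was singled out after its values were seen. Its normalized count was 29.9 in library F (22 reads), 27.8 in library E (22 reads), 27.6 in library C (32 reads), 6.20 in library D (6 reads), 4.30 in library B (5 reads) and 2.23 in library A (3 reads). The highest library was 13.4 times the lowest, a ratio reached by 0.916% of the 1419 genes with a mean from 10 up to 2 times that of LIN28A. Per kb of the longest transcript, LIN28A stood at 4.11 against 0.227 for LIN28B, 18.1 times higher. That ratio rests on only 8 reads of LIN28B (interval 3.45 to 15.8), and no other length was tried for LIN28A.

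The values of LIN28A fell into 2 clusters, libraries A, B and D against C, E and F, and these were also the 3 lowest and the 3 highest libraries for LGR5, PROM1 and SALL4. For SALL4, library D (48.6) was close to library C (49.2), and for PROM1 library B (11.2) was close to library C (12.1). POU5F1 and LIN28B, with 27 and 8 reads in all, had too few reads to show whether they share this order. POU5F1 was highest in A (7.44) and D (5.17), but its counting intervals overlapped, and libraries B and C were near a tie with 4 reads each. LIN28B was highest in B (2.58) and A (2.23) with no read in C and D. Over the 1774 genes with a mean from 10 to 45, libraries A, B and D were the lowest 3 for 29.7% and libraries C, E and F for 14.8%, while each of the other sets of 3 was the lowest for at most 4.68%. The libraries carry no label here, so that none was put in a treatment group and no test was made between them.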
